A study of Mus musculus with 2 samples.

Results

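The calcium-binding proteins calbindin (Calb1), calretinin (Calb2) and parvalbumin (Pvalb), the neuronal calcium sensors hippocalcin (Hpca), Hpcal4 and neurocalcin delta (Ncald), the calmodulin genes Calm2 and Calm3, and the calmodulin-binding protein neurogranin (Nrgn) were followed in single nuclei of mouse hippocampus. These are 9 of the 32285 genes in the count matrices. They were chosen by symbol and all 9 were found. Nuclei came from 8-month-old mice of 2 genotypes, 5XFAD and 5XFAD x MR1 KO, with 1 library per genotype, and each library pooled a male and a female mouse. 5XFAD mice carry transgenes with familial Alzheimer mutations under the neuronal Thy1 promoter, so both genotypes are amyloid models and no animal without the transgenes was analysed here. MR1 is an MHC class I-like protein that shows small microbial metabolites to MAIT cells, a group of innate-like T cells, and its loss was the only labelled difference between the groups. With 1 library per genotype there was no replicate check and no test. Intervals cover counting error only, and a difference between libraries cannot be told apart from a difference between the pooled mice.

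The libraries held 11983 and 17072 nuclei after filtering, with a median of 3685 and 2502.5 UMIs (unique molecular identifiers, which count captured RNA molecules). Mr1 RNA was not lower in the library labelled MR1 KO: it had 32 UMIs in the 5XFAD library (0.574 CPM, that is, UMIs scaled to the same total in each library or class, 95% interval 0.392 to 0.810) and 63 in the other (1.14 CPM, 0.875 to 1.46). The sources used here do not give the deleted part of Mr1, and 3' reads outside it would check nothing. Every direction below therefore refers to "the library labelled MR1 KO". The libraries shared 182 barcode sequences. Classes of nuclei were rebuilt from marker genes without use of the 9 genes, so each name means "-like", and clusters with too few markers kept a number. Not all classes were hippocampal. A medium spiny neuron class, with markers of striatum, held 1138 nuclei in the 5XFAD library but only 4 in the other, and cluster 2 held 30 and 2378. Nuclei were assigned to the female or male mouse by sex-linked RNA. The D1 medium spiny class was 0.633% female among assigned nuclei in the 5XFAD library but 100% in the other, and cluster 0 (led by Rmst and Slc17a6) 4.22% and 96.3%, so these classes compare mice of opposite sex.

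Calbindin, calretinin and parvalbumin are cytosolic EF-hand proteins that bind calcium and limit its spread, and they have long served to tell hippocampal neurons apart: calbindin is known from dentate granule cells, superficial CA1 cells and some interneurons, calretinin from mossy cells and interneurons, parvalbumin from fast-spiking basket cells. Hippocalcin, Hpcal4 and neurocalcin delta are myristoylated sensors that move to membranes when calcium rises. Calmodulin is the general calcium sensor that activates kinases and calcineurin, and neurogranin binds calcium-free calmodulin in dendritic spines through an IQ motif.

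The coding sequences show how close some of these genes are, and that their RNAs are nevertheless separate. Calm2 and Calm3 encode the same protein from separate chromosomes, yet 78 of their 450 coding bases differed (82.7% identical). Hpca and Ncald had 124 differing bases of 582 (78.7% identical). The 36 coding bases of the first canonical EF-hand loop, the calcium-coordinating stretch, are given below 5′ to 3′ from GENCODE M21 transcripts of GRCm38. Capitals mark bases not shared by all the sequences compared, which are 7 positions in the calmodulin pair (residues 21 to 32) and 13 in the sensors (residues 73 to 84).
Calm2: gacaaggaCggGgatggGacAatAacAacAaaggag
Calm3: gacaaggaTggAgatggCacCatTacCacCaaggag
Hpca: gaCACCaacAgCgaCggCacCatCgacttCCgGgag
Ncald: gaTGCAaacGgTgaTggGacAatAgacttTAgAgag
Hpcal4: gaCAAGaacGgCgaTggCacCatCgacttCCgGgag
How the authors' counting treated reads that match both calmodulin genes is not given in the sources used here.

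Among the 12 neuron classes compared, no gene of the 9 stood clearly above its level in glia on both scales. The glial reference was the level in oligodendrocytes, oligodendrocyte precursors, astrocytes and microglia, which stand for free RNA where a gene is a neuronal one. A gene was to count as above it where its highest neuron class had at least 2 times the CPM and at least 2 times the UMIs per nucleus of the highest glial class in both libraries, among the 12 neuron classes in which both libraries had 100 nuclei or more. None of the 9 did. By UMIs per nucleus alone, on which neurons have the advantage of more RNA, 5 of 9 did: Calb1, Calb2, Hpca, Hpcal4 and Ncald. By CPM, Calb1 in Sst interneurons had 105 against 63.1 CPM in the highest glial class of the 5XFAD library (1.66-fold) and 290 against 122 CPM in the library labelled MR1 KO (2.37-fold). Calb1 in granule neurons, at 104 CPM, also lay above glia in the 5XFAD library, but at 112 CPM it did not in the other. Glial nuclei had 1747 and 1259 UMIs each, over 1538 and 2431 nuclei. Glia make calmodulin too, so for Calm2 and Calm3 the glial level is not a reference for free RNA alone. For Ncald the highest glial class, oligodendrocyte precursors, stood far above the lowest. Over that lowest class the highest neuron class had 5.09 (5XFAD) and 5.73 times (the library labelled MR1 KO) the CPM.

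**Figure D1:**
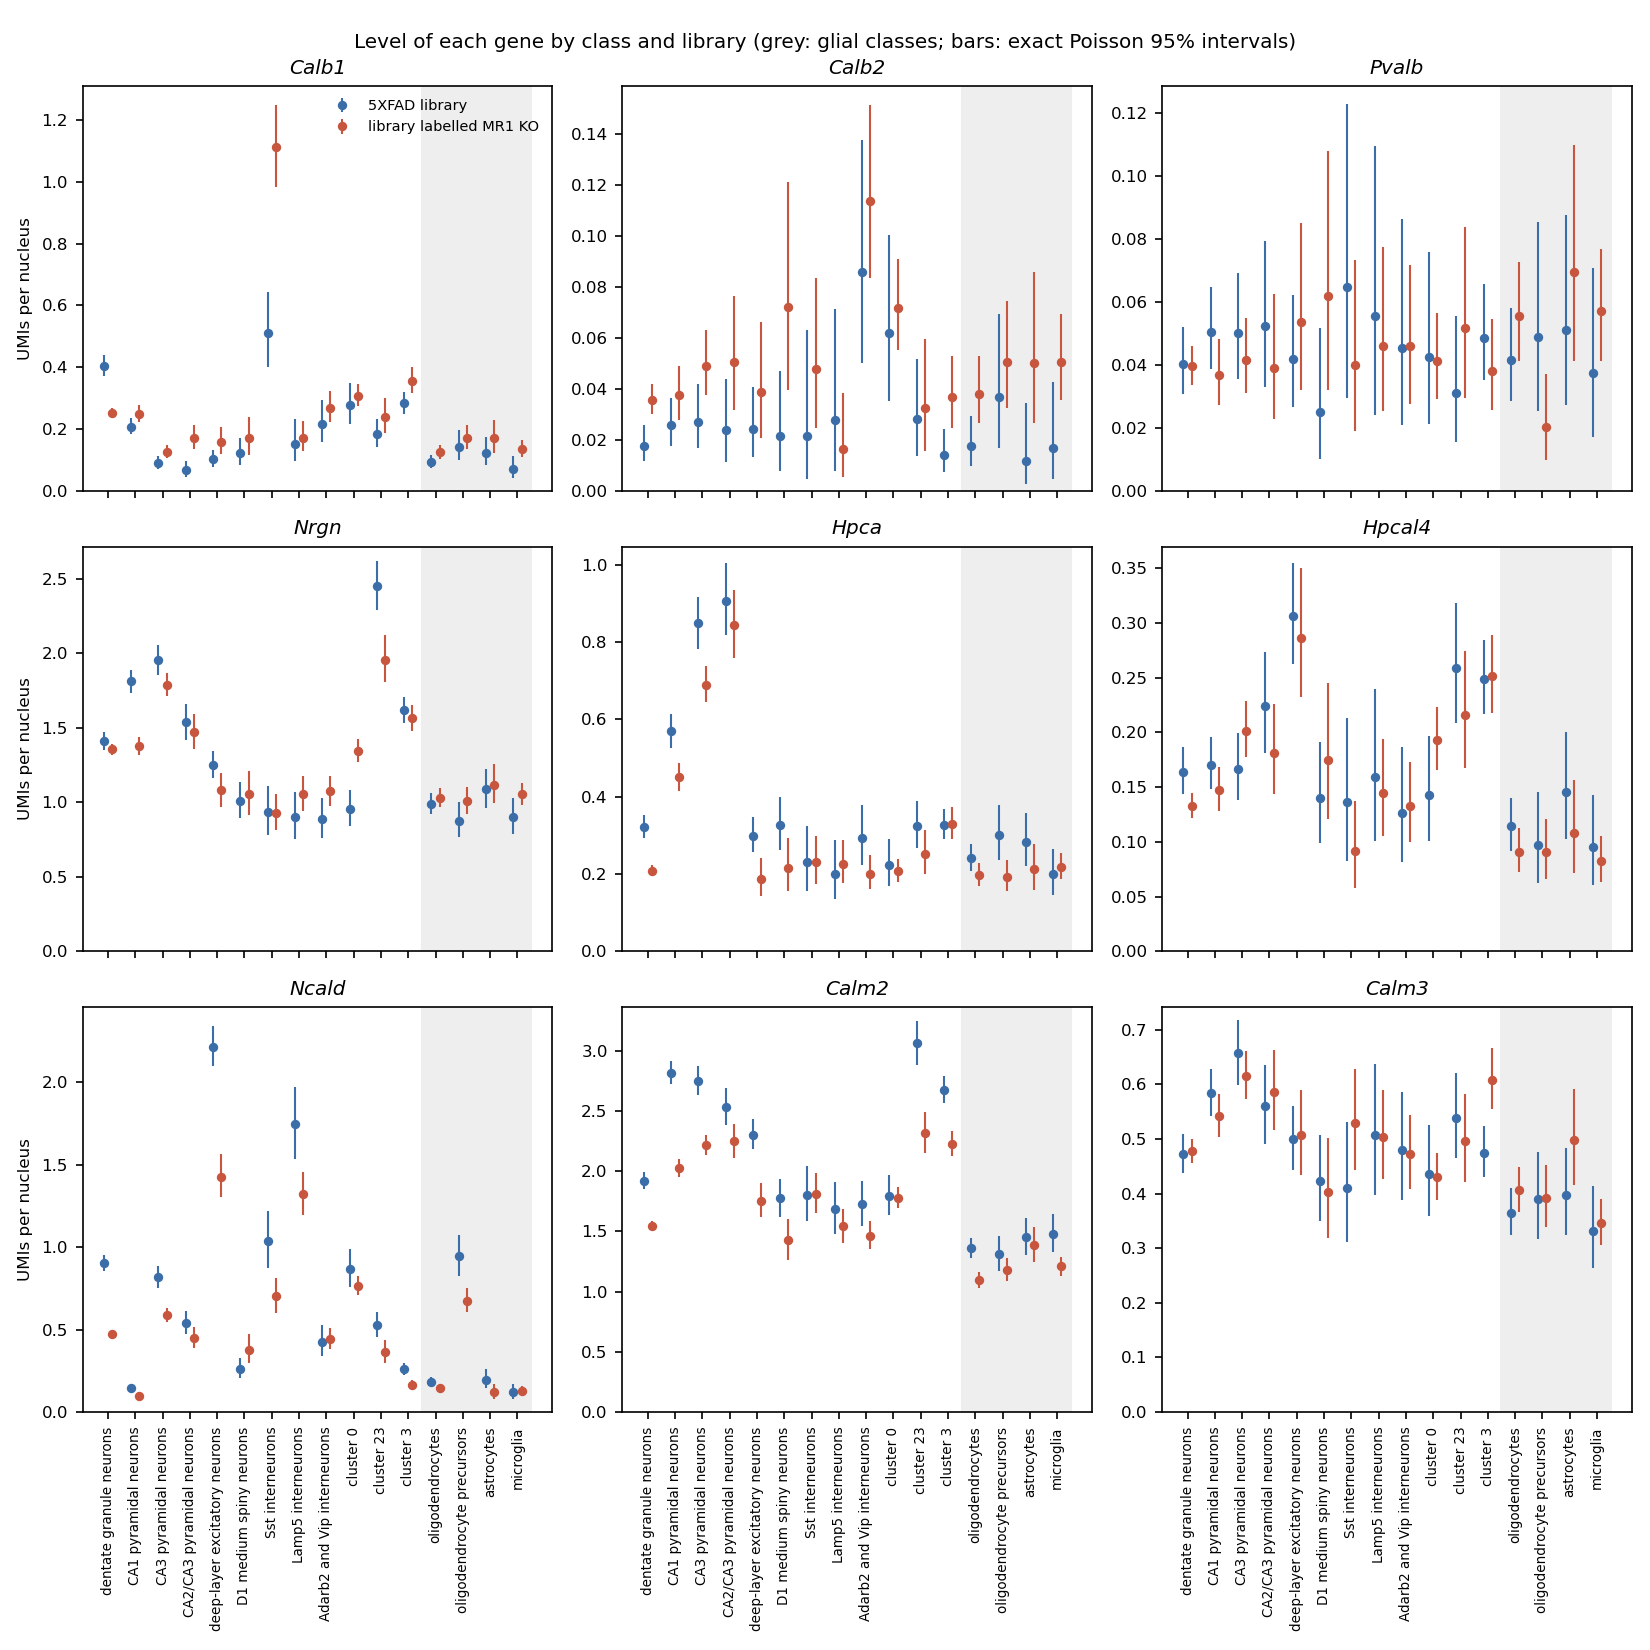
UMIs per nucleus (y axis) of each of the 9 genes in the 12 neuron classes and 4 glial classes (x axis, glia on grey) in the 5XFAD library (blue) and the library labelled MR1 KO (red), with exact Poisson 95% intervals. Calb1 peaks in Sst interneurons, Hpca in CA3 and CA2/CA3 pyramidal neurons and Ncald in deep-layer excitatory neurons, while Pvalb and Calm3 lie close to glia.

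Calb1 (chromosome 4, 15881264 to 15908064, plus strand, GRCm38, 26.8 kb) was read most in Sst interneurons, with 0.511 UMIs per nucleus in the 5XFAD library (0.399 to 0.644) and 1.11 in the library labelled MR1 KO (0.985 to 1.25). Dentate granule neurons came next in the 5XFAD library, with 0.405 UMIs per nucleus (0.373 to 0.439), and had 0.251 in the other (0.236 to 0.267). The granule level stood 2.85 and 1.47 times above the highest glial class. CA1 pyramidal neurons had 0.208 and 0.249, and cluster 3 (led by Pde11a and Cpne7) 0.283 and 0.356. The CA3 and CA2/CA3 classes were lowest in the 5XFAD library, with 0.0896 and 0.0667 UMIs per nucleus. They did not stand above glia, which ranged from 0.0705 to 0.142. In the library labelled MR1 KO the glial range was 0.124 to 0.171, and CA3 at 0.127, CA2/CA3 at 0.170, deep-layer excitatory neurons at 0.158 and D1 medium spiny neurons at 0.170 all fell inside it. The order granule, CA1, CA3 thus held in both libraries. In the library labelled MR1 KO the granule and CA1 intervals overlapped by UMIs per nucleus, which are not scaled for depth. By CPM they did not overlap there, with 112 (105 to 119) in granule and 73.4 (65.9 to 81.6) in CA1 neurons. Both lay below the highest glial class of that library, at 122 CPM. Outside the 12 compared classes, cluster 2 of the library labelled MR1 KO (led by Pdzrn4 and Car10) had 0.504 Calb1 UMIs per nucleus, and the medium spiny class of the 5XFAD library 0.310.

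Calb2 (chromosome 8, 110137502 to 110168210, minus strand, 30.7 kb) was sparse everywhere. Its highest compared class was the Adarb2 and Vip interneurons, with 0.0859 UMIs per nucleus in the 5XFAD library (17 UMIs) and 0.114 in the other (47 UMIs), against 0.0366 and 0.0504 in the highest glial class. Granule neurons had 26 and 146 UMIs in all. The highest level of all was in cluster 30, led by Gm32647, Crispld1 and Trps1, with 0.514 UMIs per nucleus (0.305 to 0.813, 35 nuclei) and 0.481 (0.360 to 0.631, 108 nuclei). It held 3 CA3 markers (Cpne4, Galnt3 and Trps1) and 1 mossy cell marker (Csf2rb2) among its top genes, and most of its barcodes were marked as doublets, so it kept its number.

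Pvalb (chromosome 15, 78191114 to 78206400, minus strand, 15.3 kb) did not stand above glia in any of the 12 compared classes. The highest was 0.0647 UMIs per nucleus in Sst interneurons in the 5XFAD library and 0.0619 in D1 medium spiny neurons in the other, against 0.0512 and 0.0695 in the highest glial class. It did so in smaller inhibitory groups. Subcluster 12 (led by Agbl1, Gfra1, Tll1 and Syt2) had 0.569 UMIs per nucleus (0.401 to 0.785, 65 nuclei) and 0.640 (0.472 to 0.849, 75 nuclei). By CPM it had 106 and 138, against 28.2 and 53.4 in the highest glial class. In this small group, which was not among the compared classes, Pvalb was thus above glia on both scales. The Pvalb-type class, subcluster 7, was named from markers other than Pvalb and had 0.331 (157 nuclei) and 0.349 (83 nuclei). Subcluster 14 had 0.441 (34 nuclei) and 0.255 (47 nuclei). In pooled glia the levels were 0.0436 and 0.0502. The intervals of the libraries overlapped in each of these subclusters, so no difference in Pvalb between the libraries was detectable there at this depth.

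Among the inhibitory subclusters Calb1 was unevenly spread. Subcluster 17 (led by Nxph2, Sema3a and Moxd1) had the highest level, 1.22 UMIs per nucleus in the 5XFAD library (0.610 to 2.19, only 9 nuclei) and 2.38 in the library labelled MR1 KO (2.13 to 2.65, 141 nuclei). Within the Sst class, subcluster 19 had 1.07 (15 nuclei) and 1.42 (158 nuclei), and subcluster 4 had 0.482 (112 nuclei) and 0.634 (82 nuclei). Different subclusters therefore made up most of the Sst class in the libraries. Of the nuclei assigned to a mouse in the library labelled MR1 KO, 125 of subcluster 19 were female and 1 male, and 123 of subcluster 17 were female and 1 male. Subcluster 15 showed the widest gap, with 0.0625 in the 5XFAD library but 1.27 in the other. Its assigned nuclei were 19 male and 0 female in the first, and 11 female and 0 male in the second. Calb2 was highest in subcluster 5 (a Vip group), with 0.133 and 0.190 UMIs per nucleus.

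**Figure D2:**
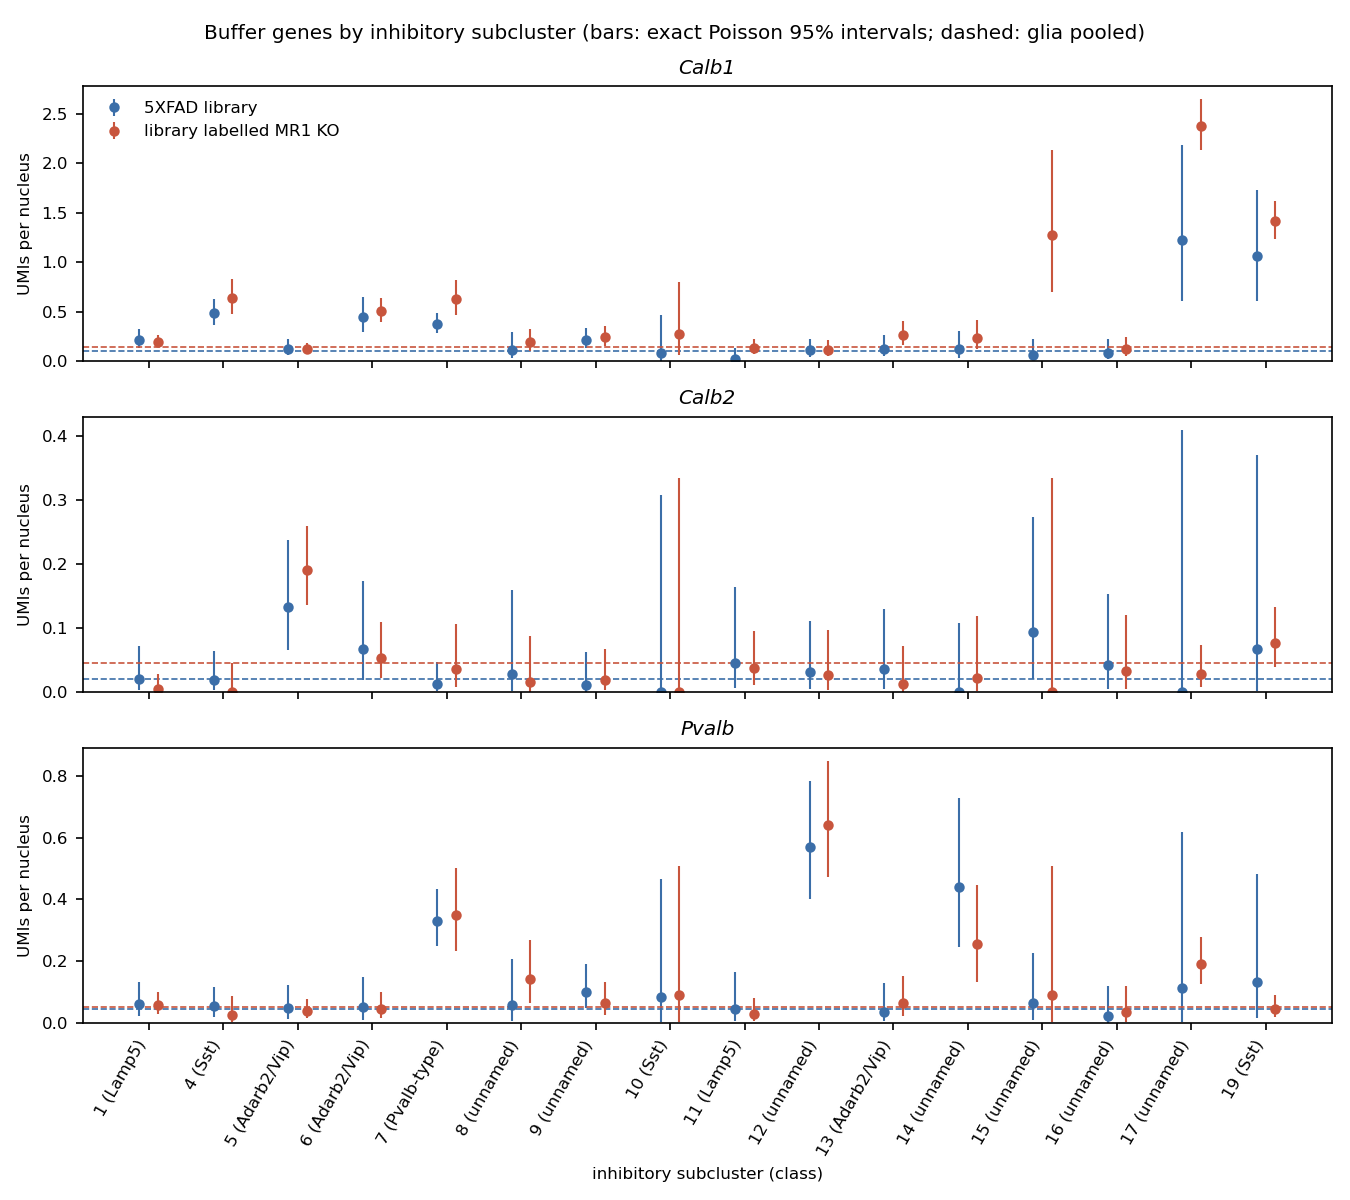
UMIs per nucleus (y axis) of Calb1, Calb2 and Pvalb in the inhibitory subclusters (x axis) of the 5XFAD library (blue) and the library labelled MR1 KO (red), with exact Poisson 95% intervals and pooled glia as dashed lines. Calb1 is highest in subclusters 17 and 19, Calb2 in subcluster 5 and Pvalb in subclusters 12, 14 and 7.

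Hpca (chromosome 4, 129111570 to 129122036, minus strand, 10.5 kb) had its highest UMIs per nucleus in the CA pyramidal classes. CA2/CA3 pyramidal neurons had 0.907 UMIs per nucleus in the 5XFAD library (0.818 to 1.00) and 0.844 in the library labelled MR1 KO (0.760 to 0.935), followed by CA3 neurons with 0.848 and 0.690 and CA1 neurons with 0.569 and 0.450. Granule neurons, at 0.321 and 0.208, sat near the highest glial values of 0.301 and 0.219. By CPM the order between neurons and glia was lost: CA2/CA3 neurons had 137 and 161 CPM, and the highest glial class 164 and 199 CPM. The medium spiny class of the 5XFAD library had 0.478 UMIs per nucleus and 114 CPM, close to CA3 (113 CPM) and CA1 neurons (110 CPM) of that library.

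Hpcal4 (chromosome 4, 123183227 to 123194701, plus strand, 11.5 kb) lies on the same chromosome as Hpca. It was highest in deep-layer excitatory neurons, with 0.306 UMIs per nucleus in the 5XFAD library (0.263 to 0.355) and 0.287 in the other (0.232 to 0.350), against 0.146 and 0.108 in the highest glial class. The other compared classes lay between 0.126 and the deep-layer level in the first library and from 0.0916 upward in the second.

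Ncald (chromosome 15, 37366175 to 37792570, minus strand) spans 426 kb, of which 2.01% is exonic. Deep-layer excitatory neurons had 2.21 UMIs per nucleus in the 5XFAD library (2.09 to 2.34) and 1.43 in the library labelled MR1 KO (1.30 to 1.56). Lamp5 interneurons had 1.74 and 1.32, granule neurons 0.903 and 0.472, and CA1 neurons only 0.146 and 0.0984. Ncald was thus low in CA1 and high in granule and CA3 neurons (0.817 and 0.589 in CA3), and the intervals of CA1 and granule neurons did not overlap in either library. Within the Lamp5 class subcluster 11 had 3.46 and 2.05, and subcluster 1 had 0.990 and 0.918. Ncald was also high in a glial class: oligodendrocyte precursors had 0.943 and 0.676 UMIs per nucleus, or 412 and 416 CPM, while the lowest glial classes had 0.120 in both libraries. By CPM the precursors lay close to Lamp5 interneurons (409 and 378).

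The calmodulin genes and Nrgn were read in every class. Calm2 (chromosome 17, 87433412 to 87446935, minus strand) ran from 1.69 to 3.06 UMIs per nucleus over neuron classes in the 5XFAD library, and from 1.43 to 2.32 in the other library, and in glia from 1.31 to 1.48 and from 1.09 to 1.39. Calm3 (chromosome 7, 16915379 to 16924114, minus strand) ran from 0.410 to 0.657 and from 0.402 to 0.616, with glia from 0.332 to 0.398 and from 0.346 to 0.498. Nrgn (chromosome 9, 37544492 to 37552904, minus strand) was highest in cluster 23 (led by Gm42705 and Ndst4), with 2.45 and 1.96 UMIs per nucleus, followed by CA3 neurons with 1.95 and 1.79. Granule neurons had 1.41 and 1.36. Interneurons, which are not known for neurogranin, had 0.889 to 0.935 in the 5XFAD library, against 0.928 to 1.08 in the other, within or just below the glial ranges of 0.878 to 1.09 and 1.01 to 1.12. By CPM, Nrgn, Calm2 and Calm3 were higher in the highest glial class than in any compared neuron class in both libraries.

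How far the genes followed the RNA content of a nucleus differed between them. Granule neurons were ranked by total UMIs and divided into 3 equal groups within each library, and the deepest group had 3.41 times (5XFAD) and 2.93 times (the library labelled MR1 KO) the total UMIs of the shallowest. Ncald followed this, with 4.19 and 3.45 times the UMIs per nucleus, and Calb1 followed it less closely in the second library, with 3.54 and 2.46. The remaining members followed it less in both libraries, apart from Hpcal4 at 3.47 in the 5XFAD library (1.43 in the other). The folds were 2.01 and 1.73 for Nrgn, 2.12 and 1.86 for Calm2, 2.02 and 1.76 for Hpca, 1.92 and 1.61 for Calm3, 1.43 and 1.21 for Calb2 and 1.24 and 1.51 for Pvalb. A gene with equal UMIs in deep and shallow nuclei would give 1 on this scale. The granule class pools cluster 15 and the shallower cluster 16, in unlike proportions in the libraries. Deep and shallow groups can therefore also differ in cluster and in mouse, which was not separated here.

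**Figure D3:**
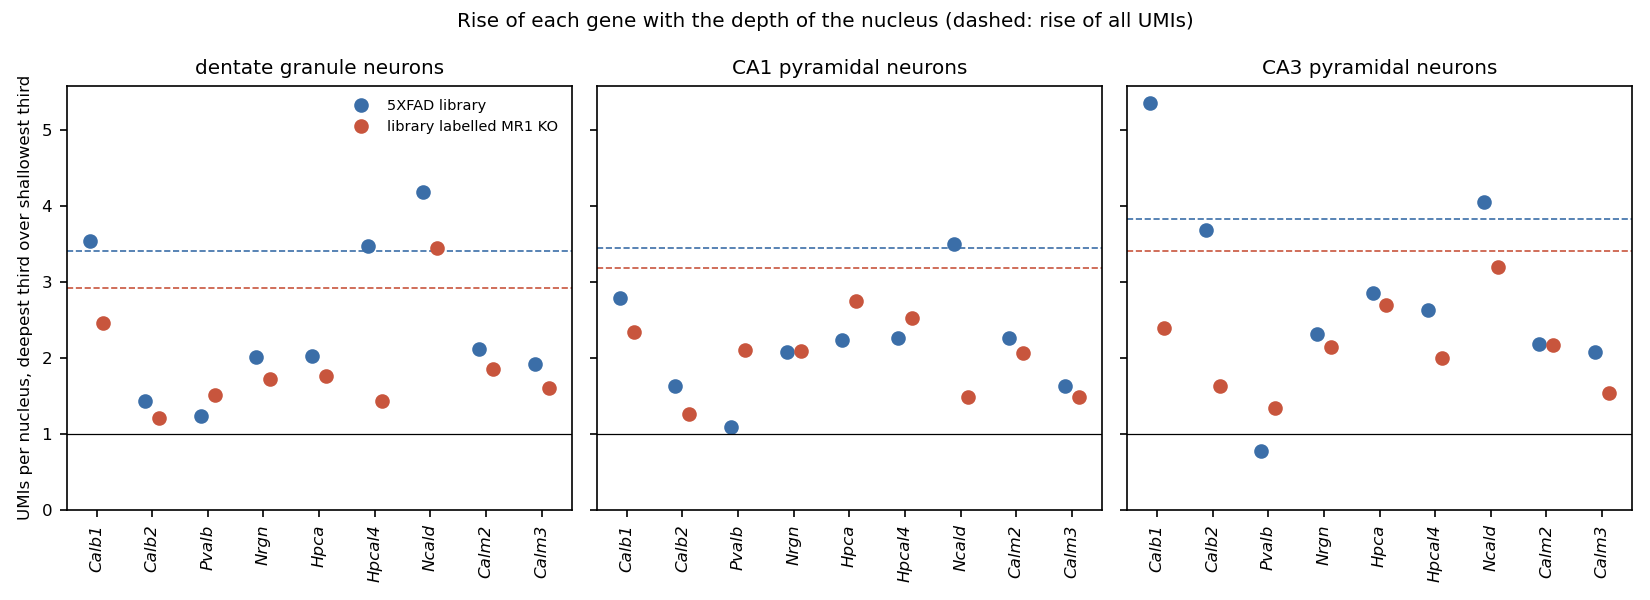
UMIs per nucleus in the deepest of 3 equal groups of nuclei over the shallowest (y axis) for each of the 9 genes (x axis) in granule, CA1 and CA3 neurons (panels) of the 5XFAD library (blue) and the library labelled MR1 KO (red), with the fold of all UMIs as dashed lines. In granule neurons Ncald lies above the dashed line in both libraries, at 4.19 and 3.45, and Calb2 and Pvalb lie between 1.21 and 1.51.

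The design asks whether these genes differ between 5XFAD mice with and without the MR1 label. By CPM they were mostly higher in the library labelled MR1 KO. Of 79 pairs of a gene and a neuron class with at least 100 UMIs over both libraries, 20 were at least 1.5-fold higher (25.3%), and 0 were at least 1.5-fold lower. Over all genes in the same classes, 5.52% of pairs were at least 1.5-fold higher and 2.47% at least 1.5-fold lower. The ratio was above 1 in 71 of 79 pairs and its counting interval lay wholly above 1 in 55 and wholly below 1 in 2. For these counts no share over all genes was taken, and abundant genes have narrow intervals. The median ratio was 1.26, while the medians over all genes were 1.01 to 1.10 by class. By UMIs per nucleus the ratios were lower. Their median was 0.929, 53 of 79 pairs were below 1, 4 were at least 1.5-fold higher and 7 at least 1.5-fold lower. Nuclei of the library labelled MR1 KO had 0.576 (granule neurons) to 0.818 times (Lamp5 interneurons) the UMIs of the same class in the other library. A gene with unchanged CPM therefore has a ratio below 1 by UMIs per nucleus. No share over all genes was taken on this scale, so these counts do not show a reversal particular to the members.

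The median ratio over neuron classes lay inside the counting interval of the glial ratio for each gene except Nrgn, whose median lay below it. Some of these intervals are wide, and the Pvalb median covers only 2 classes. In pooled glia the CPM ratio of Calb1 was 1.92 (1.59 to 2.34) and its median over neuron classes was also 1.92. Its ratio in granule neurons, 1.08 (0.973 to 1.19), lay below that of glia with no overlap of the intervals. For Calb2 the glial ratio was 3.25 (2.15 to 5.04), and 3.47 in granule neurons, the only class with enough UMIs. Nrgn had 1.49 (1.39 to 1.59) in glia and a neuron median of 1.31, and Calm3 had 1.48 (1.33 to 1.65) and 1.39. The glial ratios of the other genes were 1.60 (1.18 to 2.19) for Pvalb, 1.18 (1.11 to 1.25) for Calm2, 1.14 (1.01 to 1.30) for Ncald, 1.13 (0.990 to 1.30) for Hpca and 1.10 (0.897 to 1.35) for Hpcal4. Their neuron medians were 1.41, 1.15, 1.04, 1.19 and 1.31. Over 8898 genes in glia the median ratio was 1.06. Of the 20 pairs that were at least 1.5-fold higher, 19 lay under 2 times the highest glial class by UMIs per nucleus in at least 1 library, as did 74 of all 79. The part of free RNA in these ratios was not tested.

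**Figure D4:**
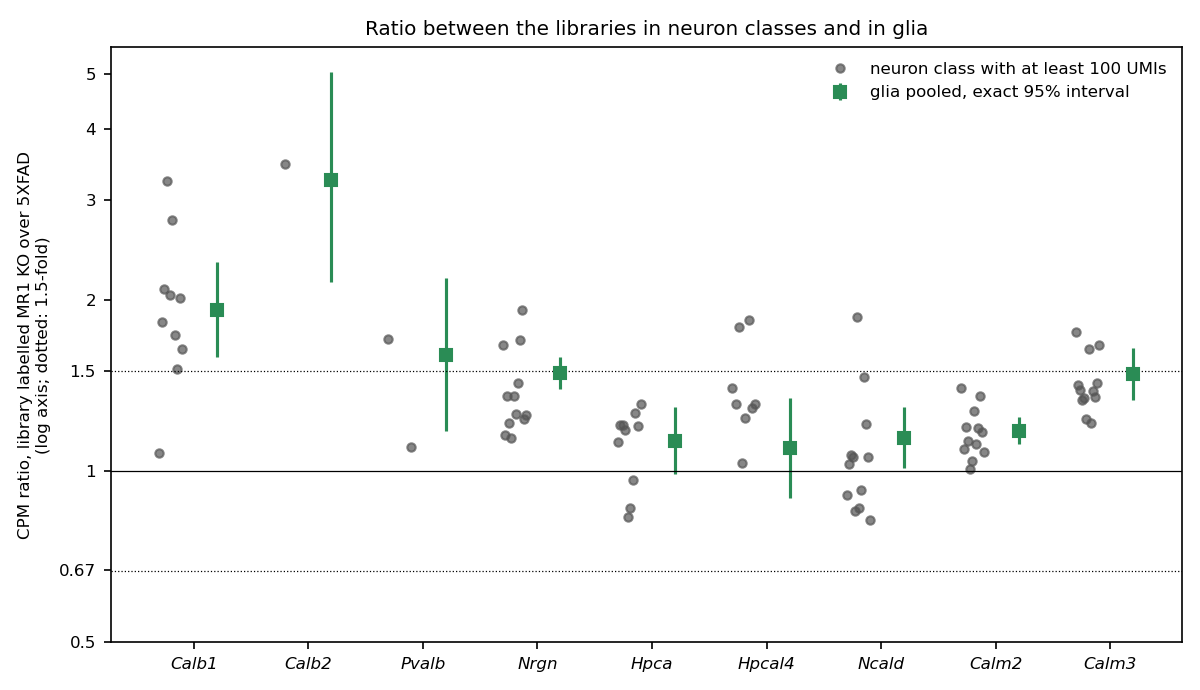
CPM ratio of the library labelled MR1 KO over the 5XFAD library (y axis, log scale, dotted lines at 1.5-fold) for each gene (x axis) in each neuron class with at least 100 UMIs (grey points) and in pooled glia (green squares, exact 95% interval). Calb1 lies at or above 1.5 in glia and in its neuron classes other than granule neurons (1.08), and Ncald ranges from 0.822 to 1.87 over neuron classes around a glial ratio of 1.14.

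Calb1 made up 9 of the 20 pairs, from 10 tested. Its ratio was 1.83 in CA1 neurons (1.55 to 2.16), 2.09 in CA3 neurons (1.56 to 2.84), 3.25 in CA2/CA3 neurons (2.08 to 5.21), 2.04 in deep-layer neurons (1.38 to 3.01) and 2.77 in Sst interneurons (2.13 to 3.65). The background of genes at least 1.5-fold higher was 4.06%, 3.74%, 2.29%, 5.49% and 6.81% in these classes, and that of genes at least 1.5-fold lower was 1.03%, 0.798%, 1.38%, 2.57% and 4.99%. Adarb2 and Vip interneurons had 1.74 (1.21 to 2.53), against a background of 4.48% (1.45% lower). In CA1 neurons the ratio was 1.70 in female and 1.94 in male nuclei, and in CA2/CA3 neurons 3.66 (19 and 28 UMIs) and 2.69 (6 and 27 UMIs). In both classes most assigned nuclei were female in the 5XFAD library (68.5% and 78.0%) and male in the other (42.0% and 41.7% female). In CA1, CA3, CA2/CA3 and deep-layer neurons the level was less than 1.5 times the highest glial class in both libraries, and taking off the lowest glial level reversed the ratio in CA3 neurons (0.215). With it taken off, the ratio was also under 1.5 in CA1 (1.39) and deep-layer neurons (1.42), Adarb2 and Vip interneurons (1.39) and clusters 0 (1.21) and 3 (1.42), and none could be given for CA2/CA3 neurons, whose level in the 5XFAD library lay below it. Over all 20 pairs, 11 stayed at least 1.5-fold higher, 7 did not and 2 gave no value. Some of these values rest on small remainders. Calb1 in CA3 neurons of the library labelled MR1 KO had 0.127 UMIs per nucleus against a lowest glial level of 0.124. By UMIs per nucleus, Calb1 in Sst interneurons was the single pair of the 20 with at least 2 times the highest glial class in both libraries. By CPM it had only 1.66 times that class in the 5XFAD library. There the ratio with the lowest glial level taken off was 2.85. Sst levels also differed by mouse, with 0.470 and 1.29 UMIs per nucleus in female nuclei (ratio by CPM 3.04) and 0.688 and 0.533 in male nuclei (1.19). In subcluster 4 alone the CPM values were 105 and 182, and in subcluster 19 they were 148 and 348.

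Calb1 in granule neurons, where calbindin is best known in this tissue, was the exception among the Calb1 pairs. The libraries had 594 UMIs in 1467 nuclei (104 CPM) and 1035 UMIs in 4120 nuclei (112 CPM), a ratio of 1.08 (0.973 to 1.19), where 11.1% of all genes were at least 1.5-fold higher, 3.62% at least 1.5-fold lower, and the median of all genes was 1.10. By UMIs per nucleus the ratio was 0.620 (0.560 to 0.687). The class pools cluster 15, with 1280 and 1267 nuclei, and the shallower cluster 16, with 187 and 2853, so the pooled value mixes them in unlike proportions. In cluster 15 Calb1 had 0.442 and 0.384 UMIs per nucleus (106 and 138 CPM, ratio 1.31, 1.16 to 1.48). In cluster 16 it had 0.150 and 0.192 (75.3 and 95.5 CPM, ratio 1.27, 0.868 to 1.93). Within clusters, then, the CPM ratio was higher than in the pooled class.

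Male nuclei of cluster 15 had more Calb1 than female nuclei in both libraries. In the 5XFAD library female nuclei had 0.424 UMIs per nucleus (1066 nuclei) and male nuclei 0.676 (111 nuclei), and in the library labelled MR1 KO 0.175 (189 nuclei) and 0.469 (531 nuclei). By UMIs per nucleus, which are not scaled for depth, the intervals of female and male nuclei did not overlap in either library. By CPM the values were 102 and 137, and 60.8 and 154, a relatively narrower gap in the 5XFAD library. Between the libraries, cluster 15 thus went from 102 to 60.8 CPM in female nuclei and from 137 to 154 CPM in male nuclei. Non-overlap is not claimed for CPM. Over the whole granule class the ratio between the libraries was 0.832 in female nuclei (0.727 to 0.953) and 1.21 in male nuclei (0.941 to 1.58). Each value stands for a single mouse, so sex, mouse and library cannot be told apart. In cluster 15 Ncald had 0.972 and 0.587 UMIs per nucleus, or 233 and 211 CPM.

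**Figure D5:**
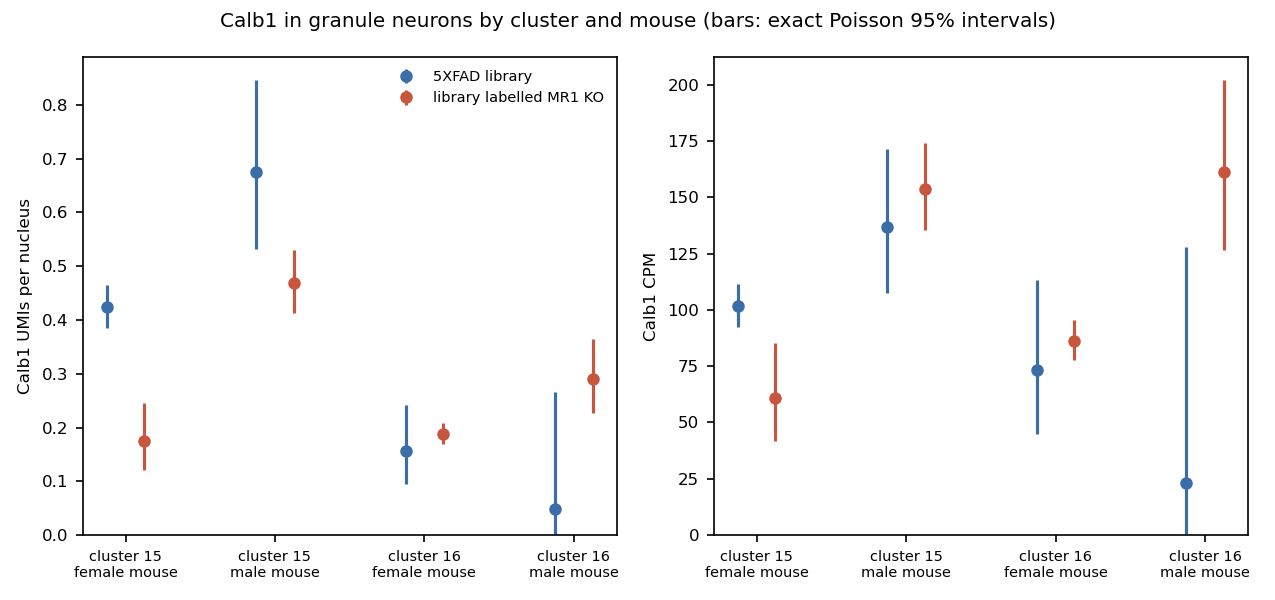
Calb1 in dentate granule neurons, as UMIs per nucleus and as CPM (y axes), by cluster (15 and 16) and mouse (x axes) in the 5XFAD library (blue) and the library labelled MR1 KO (red), with exact Poisson 95% intervals. In cluster 15 male nuclei lie above female nuclei in both libraries, and female nuclei of the library labelled MR1 KO are lowest at 0.175 UMIs per nucleus.

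Granule neurons held 4 of the 20 pairs, none of them Calb1. Calb2 had a ratio of 3.47 (2.28 to 5.49), Calm3 1.75 (1.61 to 1.92), Pvalb 1.71 (1.26 to 2.34) and Nrgn 1.67 (1.59 to 1.76). The Calb2 level was only 0.484 and 0.703 times the highest glial class by UMIs per nucleus. In the library labelled MR1 KO its 0.0354 UMIs per nucleus also lay below the lowest glial level of 0.0380. No Calb2 ratio was therefore given with that level taken off. Nrgn was under 1.5-fold in male nuclei (1.36) and with the lowest glial level taken off (1.12), which moved Pvalb, a gene near that level, to 11.7. By UMIs per nucleus Nrgn (1.41 and 1.36) and Calm3 differed little in this class, with ratios of 0.961 and 1.01. The other pairs were Nrgn in Adarb2 and Vip interneurons (1.70, or 8.42 with the lowest glial level taken off) and cluster 0 (1.92, or 5.81), Calm3 in Sst interneurons (1.64) and cluster 3 (1.67), Hpcal4 in CA3 neurons (1.79) and cluster 0 (1.85), Ncald in D1 medium spiny neurons (1.87), and Calb1 in clusters 0 (1.51), 23 (2.02) and 3 (1.64). The value of 8.42 rests on 0.889 UMIs per nucleus in the 5XFAD library, close to the lowest glial level of 0.878. The background of higher genes was 8.79% in cluster 0, 2.89% in cluster 3, 3.72% in cluster 23 and 8.92% in D1 medium spiny neurons, and that of lower genes was 5.59%, 1.34%, 1.03% and 9.87%. Lamp5 interneurons had no member past 1.5-fold among 4 tested, against 4.07% of genes higher and 1.94% lower. In the D1 and cluster 0 classes nearly all assigned nuclei came from mice of opposite sex in the libraries. Without these classes 16 of 67 pairs were at least 1.5-fold higher. Hpca and Calm2 had no such pair among 10 and 12 tested, with ratios of 0.832 to 1.31 and 1.01 to 1.40.

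The wider calcium sensor and calmodulin target genes, 56 in 5 lists, differed in both directions. Of 466 pairs tested, 39 were at least 1.5-fold higher (8.37%) and 33 at least 1.5-fold lower (7.08%), against 5.52% and 2.47% of all pairs. Other EF-hand buffers and sensors had 20 higher and 6 lower of 119. They included Cabp7, a calcium sensor of the Golgi, in granule (2.21), CA1 (1.80) and CA3 neurons (1.61), and Necab2 in granule neurons (2.01). Calmodulin-dependent kinases and their regulators had 11 higher and 3 lower of 129. Camk2d, a subunit of calcium/calmodulin-dependent kinase II, had 1.67 in CA3, 1.83 in deep-layer and 1.56 in Sst neurons, and Camk4, a nuclear kinase, had 0.602 in granule neurons. Camkk2, which activates it, had 0.494 in deep-layer neurons, and Cabp1 0.428.

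The IQ-motif binders other than Nrgn had 1 higher and 9 lower of 24 pairs. Pcp4, which like neurogranin binds calmodulin through an IQ motif, had ratios of 0.662 in CA1 (0.588 to 0.744), 0.612 in CA3 (0.537 to 0.696), 0.450 in Sst, 0.497 in Lamp5 and 0.650 in cluster 3 nuclei. Nrgn ran the other way, from 1.14 to 1.92 over the 12 classes. Calcineurin subunits and regulators had 0 higher and 3 lower of 62, and other calmodulin targets 7 higher and 12 lower of 132. Among the targets Adcy1, the calmodulin-stimulated adenylyl cyclase, had 0.637 in granule neurons (0.588 to 0.690, 1203 and 1239 UMIs), Adcy8, a related cyclase, 0.565 in Lamp5 nuclei, and Nos1, neuronal nitric oxide synthase, 0.472 in Sst nuclei. Atp2b4, a plasma membrane calcium pump, had 1.87 in CA1 neurons. Pde1c, a calmodulin-dependent phosphodiesterase, had 1.70 in deep-layer neurons and 0.639 in Adarb2 and Vip interneurons. In clusters held by opposite mice, cluster 0 had Camkv at 2.67, Necab1 at 2.51, Rcan1 at 0.585 and Pde1b at 0.648. The remaining named genes were Camk2g in Sst nuclei (1.53) and Hpcal1 in cluster 3 (1.55).

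Likeness over classes was described by Pearson's r of log2(CPM + 1), the mean of both libraries, over 16 classes among 11994 genes. The points share library and depth, and no test was made. Calm3 was most like Selenow (0.989), Fth1 (0.989) and Rpl28 (0.987), and Pvalb most like Prdx5 (0.989) and Gpx4 (0.987). Calm2 was most like Fkbp1a (0.978), Pfdn5 (0.976) and Mrpl30 (0.976), and Nrgn most like Calm2 itself (0.959), then Znrd2 (0.947) and Jtb (0.942). Among the members, Pvalb and Calm3 had 0.961 and Calm2 and Calm3 0.943. The profiles of the others were less closely matched. Hpca was most like Tesc (0.886), Mrpl48 (0.884) and Gt(ROSA)26Sor (0.884), Hpcal4 most like Msl2 (0.909), Brk1 (0.894) and Rtl6 (0.889), and the genes like Calb2 included Urod (0.889) and Nap1l2 (0.883). Calb1 was most like Lrpap1 (0.871), Rbm34 (0.841) and Psme2 (0.837), and Ncald most like 4930447A16Rik (0.867), Tbc1d12 (0.812) and Sema5a (0.801). Hpca and Ncald, whose coding bases are alike, had -0.247.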

How the data were processed

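RNA of single nuclei was measured by 10x Genomics 3' sequencing, per the labels' protocols. The deposited matrices hold raw UMI counts per gene and barcode, made with Cell Ranger 7.0.0 on mm10, per the submitters' processing notes, which also name Seurat without a role. For annotation release, strand setting and intron counting: not given in the sources used here. Ambient RNA was not removed from the deposited counts here.

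Barcodes with at least 500 genes and under 5% mitochondrial UMIs were kept (15408 of 25238 and 22263 of 26212). Scrublet (scanpy 1.11.5) marked 19.5% and 20.4% as doublets within each library, at the share expected from 0.8% per 1000 barcodes, and these were left out. Both libraries were clustered together (2500 variable genes without the 9 members, Xist, Tsix, Y-linked and mitochondrial genes, 40 components, 20 neighbours, Leiden resolution 1.5). A cluster was named from at least 3 markers among its top 50 genes. Inhibitory clusters were clustered again (resolution 1), which was chosen after seeing the data. Clusters with Xist and Y-linked UMIs together in at least 15% of nuclei were left out (418 and 641 nuclei). Nuclei with 2 or more Xist UMIs but none from Y genes were called female, and those with 1 or more Y-linked UMIs but no Xist male. The 2 mice of a library shared a capture and are not independent replicates.

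UMIs were summed per library and class, as CPM of the class and per nucleus, with exact Poisson intervals. Ratios carry exact conditional binomial 95% intervals, and the ratio script was tested on simulated data. The members and lists were chosen with earlier results of these data known. Named genes were all members, up to 2 wider-list genes per class and direction past 1.5-fold and on the same side of 1 in both mice, and the 3 genes most alike each member; a few of these are not reported here. Gene positions and coding bases came from GENCODE M21.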

Additional observations from a re-analysis of the deposited data

Results flagged for a closer look

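In 12 of the 47 pairs of a gene and a class with a ratio in both mice, the female and male ratios lay on opposite sides of 1. In 2 of them the counting intervals of both ratios also excluded 1. Ncald in CA3 pyramidal neurons had a CPM ratio of the library labelled MR1 KO over the 5XFAD library of 1.26 in female nuclei and 0.779 in male nuclei. Calm2 in deep-layer excitatory neurons had 0.854 in female nuclei and 1.40 in male nuclei. Each value compares a single mouse with a single mouse, and the difference between the sexes was not tested. The counts of 12 and 2 cover the member genes only. No share over all genes was taken for either count. They therefore cannot show whether such pairs are more common among the members than among other genes.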

How the results depend on the processing

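No paired analysis was possible because each genotype had 1 library. The count of genes above the glial level was 0 with each of these other choices (at least 1000 genes, under 1% mitochondrial UMIs, doublets kept, each sex, thinning to 1000 UMIs, Leiden resolution 1.0) and 5 with UMIs per nucleus alone, an alternative chosen after seeing the data. Against 20 of 79 pairs at least 1.5-fold higher, there were 9 of 47 in male mice, 9 of 46 after thinning (which leaves out shallower nuclei, 17 and 309 granule nuclei, 66 and 488 microglia), 33 of 104 with at least 20 UMIs, and 4 of 79 by UMIs per nucleus (added after seeing the data); the other settings gave 16 to 22. Against 0 pairs at least 1.5-fold lower there were 2 in male mice, 13 with the lowest glial level subtracted and 7 by UMIs per nucleus. The shares over all genes were taken for the main setting only. The Calb1 ratio in granule neurons, 1.08, was 0.832 in female mice, 1.21 in male mice, 0.662 with the lowest glial level subtracted, and 1.31 in cluster 15 and 1.27 in cluster 16 alone (added after seeing the data); other settings gave 0.979 to 1.08. The median ratio of all granule genes was 1.10, so scaling to it lowers every granule ratio by that factor. Calb1 in CA3 neurons turned to 0.215 with the glial level subtracted, which left small remainders, and Nrgn in cluster 0 to 0.763 in male mice. The causes were not tested. Classes were rebuilt and may differ from the study's, and sparse genes such as Calb2 and Pvalb are limited by UMIs.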
